A study of Rattus norvegicus with 9 samples.

Results

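The genes described here are the receptors, the cytoplasmic core and the DNA-binding end of canonical Wnt signalling. They were the co-receptors Lrp4, Lrp5 and Lrp6, beta-catenin (Ctnnb1), the destruction complex scaffolds Apc and Axin2, and the TCF/LEF factors Tcf7, Tcf7l1, Tcf7l2 and Lef1. Members were the probe sets that the platform annotation gave to 1 of these genes alone. This rule found 22 probe sets of the 31042 tested, for 10 genes of 14217, and the rule itself used no measured value. The genes were nevertheless picked with results of these samples known: Lrp4, Lrp5, Tcf7, Ctnnb1 and Tcf3, a symbol also used for Tcf7l1, had been listed by the study from these same arrays. The study listed Ctnnb1 as higher in the limb and the others as higher in the skull. Their counts and directions below are a description and not independent evidence. Lrp4, Lrp6, Axin2 and Tcf7 had 1 probe set each, and the other 6 genes had several.

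Whole bone was taken from the calvaria (skull vault, labelled calvaria 1 to 4) and from the ulna (a forelimb long bone, ulna 1 to 5) of normal, untreated male CD rats weighing about 110 g. Each of the 9 GeneChips gave 1 signal per probe set. According to the methods, soft tissue and the epiphyses or sutures were removed and the RNA of an extract was that of 4 rats, so an array stands for a pool of animals and not for 1 rat. The comparison asks whether bone of the skull and bone of the limb differ at rest in these components. For ulna 1, 2, 3 and 4 one field of the labels names the calvaria, against their titles and source names. Hoxa9, a gene of the trunk and limb, had signals from 60.4 up to 79 in the limb (5 of 5 arrays) and of no more than 4.8 in the skull, and results with ulna 5 as the only limb array are given where a call changed.

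In canonical Wnt signalling a secreted Wnt binds a Frizzled receptor together with LRP5 or LRP6. This halts the destruction complex of Axin, APC and kinases that otherwise marks beta-catenin for degradation. Beta-catenin then enters the nucleus and acts with TCF and LEF factors on target genes, of which Axin2 is one. In bone, loss of LRP5 function lowers bone mass, and sclerostin made by osteocytes blocks LRP5 and LRP6 with the help of LRP4. Beta-catenin has a second role outside this pathway, since it ties cadherins to the cytoskeleton at cell contacts.

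Of the genes measured here, Axin2 and Tcf7 held the TCF/LEF recognition letters in their RefSeq promoter windows (GRCr8 assembly), and these stretches are shown because Tcf7 was higher in the skull and Axin2 was not called. Windows ran from 250 bases before an annotated start to 50 bases after it, and 7 of the 10 genes had one. The windows of Ctnnb1, Axin2 and Tcf7l1 lay inside the gene, so the start used for them was not the outer end of the gene. The letters searched were CTTTGAT and CTTTGAA on both strands, which share their first 6 letters, so that 1 place on a strand matches only 1 of them. Capitals mark a match. The Axin2 stretch is chr10:94398535-94398684 on the plus strand and lies inside the annotated gene, which begins at base 94393379. Its matches are at bases -232 to -226 and -132 to -126 from the start used for the window, not from the beginning of the gene.
Axin2: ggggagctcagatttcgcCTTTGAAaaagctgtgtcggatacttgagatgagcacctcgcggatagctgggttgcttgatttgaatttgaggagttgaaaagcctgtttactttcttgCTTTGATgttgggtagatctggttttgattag
The Tcf7 stretch is chr10:36954266-36954294 on the minus strand, with its match at bases -4 to 3 across the start.
Tcf7: gcccgcggtgcCTTTGATgttccgacccg
Either motif was present in 8.73% of 33469 promoter windows of the same length, and 0.571% held at least 2 matches. The windows of Ctnnb1, Tcf7l1, Tcf7l2, Lef1 and Apc did not hold these letters. A match describes the letters and is not a bound site.

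Of the 10 genes, 4 had a probe set that was higher in the skull, namely Lrp4, Lrp5, Tcf7 and Tcf7l1, and none had one that was lower. Calls required both an adjusted p below 0.05 and a 2-fold difference or more, and differences are given as log2 of skull minus limb. By this rule 5 of the 22 probe sets (22.7%) were higher in the skull, against 2.89% of all probe sets in that direction and 6.24% in either. The count of lower probe sets was 0, against 3.36% of all, and at an unadjusted p under 0.05 in limma 0 were lower and 12 higher, against 17.5% and 14.6% of all probe sets. On the adjusted p alone 8 probe sets passed, all of them higher (36.4%, against 9.59% of all probe sets). In 8 probe sets every skull array lay above every limb array, which held for 9.53% of all, and the opposite order occurred in none against 11.8% of all. The median log2 difference of the 22 probe sets was 0.37 and that of all probe sets was -0.01.

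**Figure D1:**
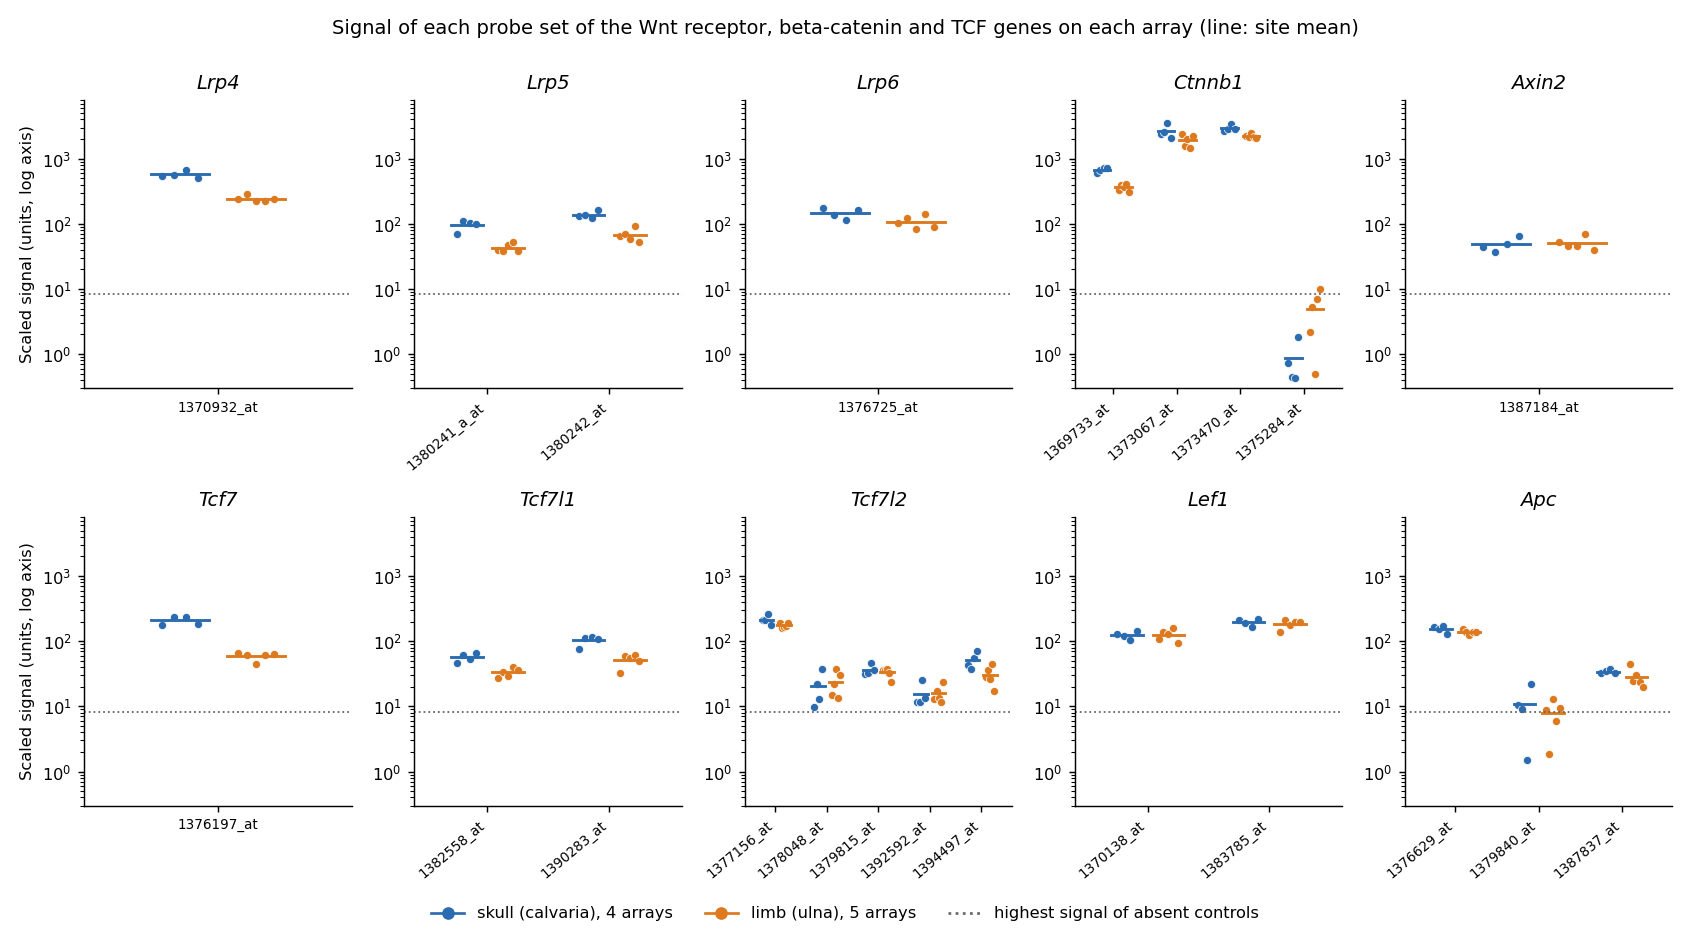
Scaled signal (log axis) of the 22 probe sets on each array, with 4 skull and 5 limb arrays as points and the mean of each site as a line. The dotted line is the highest signal of the absent controls (8.34). Lrp4, Lrp5, Tcf7 and Tcf7l1 separate the sites without overlap, while Axin2 and Lef1 overlap.

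Of the 3 LRP co-receptors, Lrp4 and Lrp5 were called higher in the skull and Lrp6 was not. Lrp4, the receptor that holds sclerostin and also serves agrin at the nerve-muscle junction, had signals of 538.9, 561.8, 672 and 511.3 on calvaria 1 to 4. On ulna 1 to 5 its signals were 239.7, 281.6, 225.8, 227.1 and 239.5. Every skull array was above every limb array by a wide gap, and the limb arrays lay close together except for ulna 2. Means were 571 ± 70.4 (SD, n = 4) and 243 ± 22.7 (SD, n = 5), an S:L ratio of 2.35. The log2 difference was 1.23 ± 0.09 (SE; adjusted p = 5.51e-05), and Lrp4 stayed higher by this rule under all 20 other settings, at 1.15 to 1.31.

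Lrp5, the Wnt co-receptor tied to bone mass, was read by 2 probe sets, and both were higher in the skull. The first (1380241_a_at) had signals of 70.4, 110.4, 101.3 and 98.5 in the skull and of 39.3, 38.3, 46.8, 52 and 37.7 in the limb. The second (1380242_at) had 130.2, 134.5, 123.9 and 163 in the skull and 65.3, 68.6, 58.1, 91 and 53 in the limb. The sites did not overlap in either, and ulna 4 was the highest limb array in both. Their S:L ratios were 2.22 and 2.05, with log2 differences of 1.14 ± 0.16 (adjusted p = 0.000901) and 1.05 ± 0.16 (adjusted p = 0.00135). These differences sit close to the 2-fold threshold. With 16 added to each signal they became 0.91 and 0.90 and passed the adjusted p but not the fold, and the second fell to 0.97 without calvaria 4, to 0.98 without ulna 5, to 0.99 with array weights and to 0.98 with the replicate number as a block. The first had an adjusted p of 0.0959 with ulna 5 as the only limb array.

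Lrp6, the closest relative of Lrp5, overlapped between the sites. Its signals were 177, 134.4, 115.6 and 164.4 in the skull and 101.7, 121.2, 83.7, 140.9 and 89.3 in the limb. Calvaria 3 lay below ulna 2 and ulna 4. The log2 difference of 0.47 ± 0.18 had a 95% confidence interval of 0.06 to 0.88 (adjusted p = 0.107), which leaves a difference of nearly 2-fold possible and does not show that Lrp6 was alike at both sites. Whether Lrp5 and Lrp6 differed from each other was not tested.

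Whole bone holds several cell types, and fewer cells of a type cannot be told apart from less RNA per cell. Skeletal muscle markers moved strongly with the sites: their summed signal was 771.5 to 846.4 in the skull and 9519 to 24030 in the limb, and 15 of the 17 measured were lower in the skull, where 7 had a mean at or below the absent controls (Tnnc2, Myh2, Myh4, Ryr1, Pvalb, Mb and Cacna1s). Most of the skull sum was 1 gene that went the other way without a call, Myh1, with signals of 532 to 696 in the skull and 351 to 509 in the limb. Within the limb the muscle sums of ulna 1 to 5 were 24030, 19520, 13040, 11620 and 9519. Osteoclast markers were higher in the skull for 4 of 5 genes, with sums of 10140 to 14820 against 4450 to 5351. Osteoblast markers were higher for 2 of 9 (Ibsp and Pth1r), with overlapping sums of 36110 to 47030 against 26900 to 36680. The 7 osteocyte markers summed to 5871 to 8416 in the skull and 4532 to 5339 in the limb, with none higher and 1 lower by the rule. No osteoclast, osteoblast or osteocyte marker had a mean at or below the absent controls at either site. Cartilage markers summed to 86.6 to 128 in the skull and 149.6 to 239.1 in the limb (1 of 6 lower, Col9a1 and Matn1 at or below the absent controls at both sites), and endothelial markers to 1464 to 1569 and 1167 to 1363 (1 of 7 higher and 1 lower). The log2 ratio of 3' to 5' control probe sets was 0.277 to 0.594 for Gapdh in the skull and 0.209 to 0.372 in the limb, and 0.747 to 1.04 and 0.571 to 0.858 for beta-actin. The part of these cell types and of RNA quality in the differences of Lrp4 and Lrp5 was not tested.

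**Figure D2:**
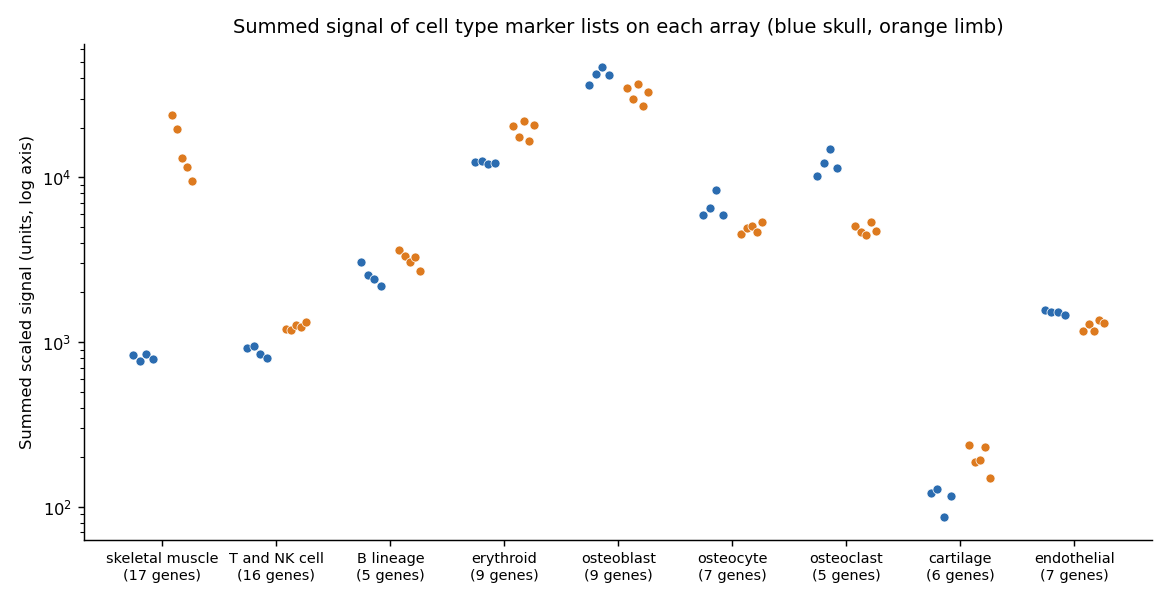
Summed scaled signal (log axis) of the cell type marker lists on each array, with skull arrays in blue and limb arrays in orange. Muscle sums run from 9519 to 24030 in the limb and from 771.5 to 846.4 in the skull, and the osteoclast sums of the skull lie above those of the limb.

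Beta-catenin was read by 4 probe sets, none of them called. Of the 3 bright ones, 2 passed the adjusted p with a higher signal in the skull, under 2-fold, and 1 did not. The fourth was too dim to give a direction. The study listed Ctnnb1 as higher in the limb, opposite to the direction of the 3 bright probe sets. Its table does not say which probe set was used. The S:L ratios of 1369733_at, 1373067_at and 1373470_at were 1.87, 1.37 and 1.34. Only the ratio of the dim probe set, 1375284_at, was near the listed one, at 0.17. That ratio rests on signals not above the absent controls on 4 skull and 4 limb arrays. Whether the study used this probe set was not tested. Probe set 1369733_at had signals of 591.7, 677.8, 708.6 and 721.3 in the skull and of 331.4, 397.4, 364.3, 401.9 and 309.2 in the limb. The sites were well apart, with means of 675 ± 58.4 and 361 ± 40.5 (SD) and a log2 difference of 0.91 ± 0.10 (adjusted p = 0.000214). It passed the 2-fold threshold only with ulna 5 as the sole limb array, at 1.12.

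Probe set 1373470_at of Ctnnb1 also kept the sites apart, by less. Its signals were 2690, 2854, 3378 and 2881 in the skull and 2205, 2154, 2431, 2120 and 2066 in the limb. The log2 difference was 0.42 ± 0.09 (adjusted p = 0.00728). Probe set 1373067_at had 2406, 2580, 3471 and 2069 in the skull and 2396, 1543, 1967, 1448 and 2219 in the limb, and here the sites overlapped. Its difference of 0.46 ± 0.19 did not pass the test (adjusted p = 0.138).

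The fourth probe set of Ctnnb1, 1375284_at, had signals of 0.735, 0.44, 0.434 and 1.83 in the skull and of 2.17, 5.29, 0.497, 7.02 and 9.88 in the limb. All 4 skull arrays were under the floor of 2.51 set on the signals, so they have no order among themselves, and only ulna 5 rose above 8.34, the highest signal of the control probe sets for an RNA that was not added. No log2 difference is given for this probe set, since that value is set by the floor, and the probe set was not called (adjusted p = 0.167). It was called lower in the skull in 1 of the 19 other settings, that with ulna 5 as the only limb array. That setting sets the skull against the brightest limb array of this probe set.

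Agreement between probe sets of a gene was tested as the difference of their site differences, by an exact permutation test over the 126 splits of the arrays. Among the bright probe sets of Ctnnb1 the widest gap was 0.48, between 1369733_at and 1373470_at (exact p = 0.00794, the smallest that this design allows). After adjustment over all 22 pairs it had p = 0.175 in this exact test, and no pair of any gene passed. Pairs with the dim probe set of Ctnnb1 were counted among the 22, but their gaps depend on the floor and are not given. With 9 arrays no pair could pass alone. At the smallest p 4 pairs would have been needed, and at a larger p more. This result therefore does not show that the probe sets agree. The 2 probe sets of Lrp5 differed by 0.09 (exact p = 0.619), those of Tcf7l1 by -0.24, with the larger difference in the brighter one (exact p = 0.175), and those of Lef1 by -0.09 (exact p = 0.659).

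The scaffolds of the destruction complex did not separate the sites. Axin2, both a scaffold and a target of the pathway whose promoter stretch is printed above, had signals of 44, 36.3, 48.9 and 65 in the skull and 51.9, 45.4, 45.4, 69.7 and 39.3 in the limb. The highest array of each site lay close to the other and the ranges overlapped almost whole. The log2 difference was -0.06 ± 0.21 with a 95% confidence interval of -0.53 to 0.42 (adjusted p = 0.898), so a 2-fold difference in either direction lay outside the interval while a smaller one did not.

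Apc, the large scaffold that binds beta-catenin, had 3 probe sets and none passed the test. The brightest (1376629_at) had 128.2 to 168.5 in the skull and 122.6 to 153.3 in the limb, with a difference of 0.15 ± 0.10 (adjusted p = 0.342). The second (1387837_at) had 32.8, 34.5, 36.9 and 32.9 in the skull and 45.3, 24.3, 30.3, 24.1 and 19.6 in the limb, so that ulna 1 was above all skull arrays and the other limb arrays below them. Its difference was 0.32 ± 0.24 (adjusted p = 0.419). The third (1379840_at) was at or below the absent controls on 1 skull and 2 limb arrays and gave 0.30 ± 0.67, with an interval of -1.22 to 1.82, too wide to place.

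**Figure D3:**
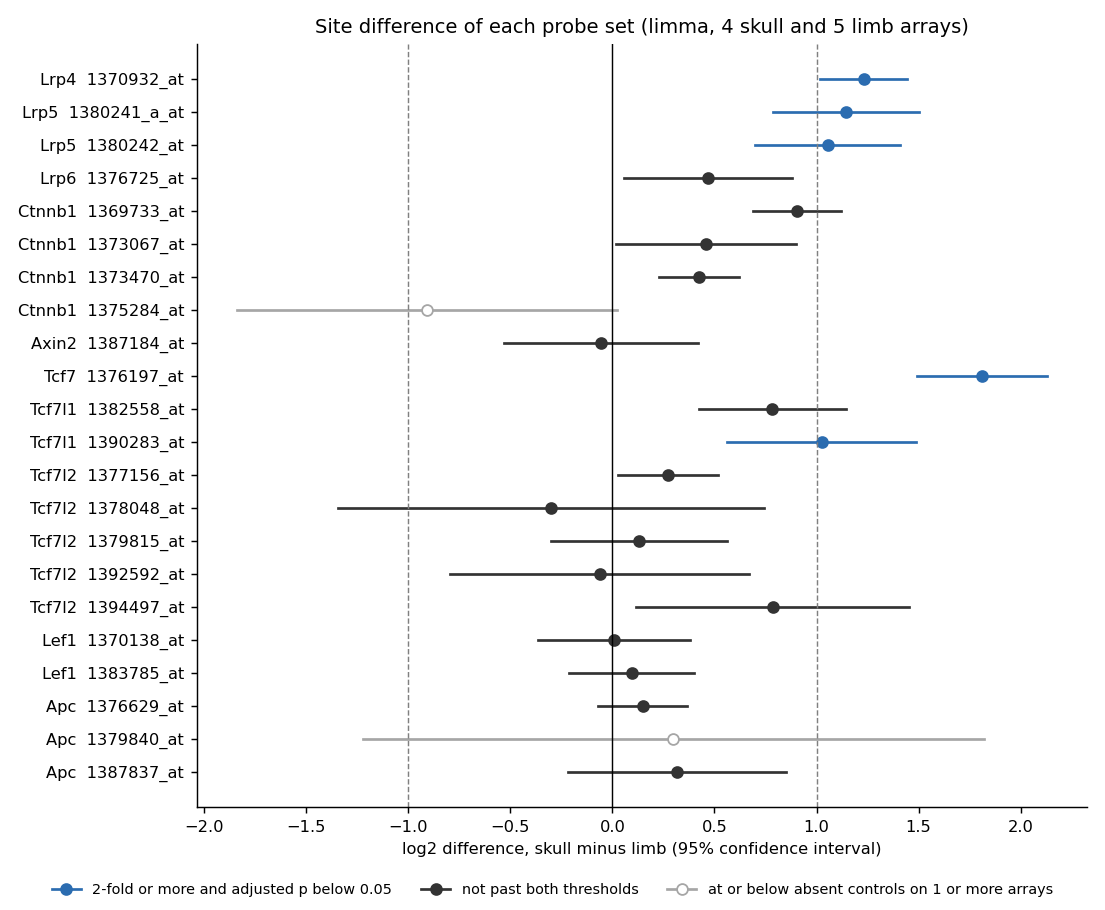
Log2 difference, skull minus limb, of each of the 22 probe sets with its 95% confidence interval from limma over 4 skull and 5 limb arrays. Blue points passed both thresholds (1.02 to 1.81), dark points did not, and open grey points were at or below the absent controls on at least 1 array, so that their values depend on the floor.

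Among the TCF/LEF factors, Tcf7 and 1 of the 2 probe sets of Tcf7l1 were called, and whether the factors differed from one another was not tested. Tcf7 (TCF1), a factor also known from T cells, had signals of 178.4, 234.3, 237.6 and 183.3 in the skull and of 65.2, 62.1, 44.7, 62.2 and 62.9 in the limb. All skull arrays were more than 2-fold above all limb arrays, and the limb arrays were tightly grouped apart from a low ulna 3. The S:L ratio was 3.51 and the log2 difference 1.81 ± 0.14 (adjusted p = 5.58e-05), the largest of the 22 probe sets. It was called in all 20 other settings, at 1.57 to 1.88. T and NK cell markers summed to 798.3 to 943.3 in the skull and 1182 to 1324 in the limb. Nkg7 (143.3 to 247 in the skull and 479.6 to 528.8 in the limb) was left out after its values were seen. The sums of the other 15 then overlapped, at 623.3 to 709.2 and 659.2 to 832.7. These sums still held Cd4, which was higher in the skull (62.4 to 101.5 against 18.4 to 38.9). Sums without both genes were not made, so the overlap does not settle how these markers compare between the sites. Of the 16 measured, Cd4 was higher and Nkg7 lower in the skull, and Cd2 and Cd28 had means at or below the absent controls at both sites, as had Cd3e in the limb. The part of these cells in the Tcf7 difference was not tested.

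Tcf7l1 (TCF3), often a repressor of Wnt targets, was higher in the skull by its brighter probe set, 1390283_at. The signals were 77.3, 110.6, 117.3 and 106.9 in the skull and 32.5, 59.3, 55, 60.4 and 48.8 in the limb. The ranges did not overlap, and ulna 1 was the lowest array. The S:L ratio was 2.01 and the log2 difference 1.02 ± 0.20 (adjusted p = 0.00659). The other probe set, 1382558_at, had 47, 61.6, 54.3 and 66.4 against 27.6, 33.5, 29.1, 40.9 and 35.7, with a difference of 0.78 ± 0.16 (adjusted p = 0.00714) that passed the test but not the fold. The call of 1390283_at turned on single arrays, since the difference was 0.87 without ulna 1, 0.98 without calvaria 2 and 0.96 without calvaria 3, and it was also lost with 16 added to the signals (0.83), with array weights (0.97) and with ulna 5 alone (1.06, adjusted p = 0.124).

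Tcf7l2 (TCF4) had 5 probe sets, and none separated the sites. The brightest (1377156_at) had 212, 210.2, 259 and 177.7 in the skull and 193.4, 160.8, 165.7, 171.2 and 191.7 in the limb, a difference of 0.27 ± 0.11 (adjusted p = 0.114). The probe set with the largest difference, 1394497_at, had 43.3, 37.2, 54.4 and 70.7 against 28.2, 35.6, 25.9, 44.8 and 17.4, with ulna 4 inside the skull range. It gave 0.79 ± 0.29 (adjusted p = 0.0967, interval 0.12 to 1.45). The remaining 3 lay between -0.30 and 0.13, with adjusted p values of 0.699 to 0.933.

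Lef1, the factor often paired with Tcf7, had no difference past the test. Probe set 1370138_at had 128.1, 121.9, 104 and 142.4 in the skull and 106.3, 136.7, 128, 161.4 and 92.3 in the limb, with a difference of 0.01 ± 0.16 (adjusted p = 0.990). Probe set 1383785_at had 212.2, 193.7, 166.7 and 218.9 against 138.5, 215.2, 179.2, 200.3 and 199.1, with a difference of 0.09 ± 0.14 (adjusted p = 0.699). In both the limb range began below the skull range and covered most of it. The 95% intervals were -0.36 to 0.38 and -0.21 to 0.40, so a 2-fold difference lay outside both. The B lineage, in which Lef1 is known in early cells, had marker sums of 2181 to 3083 in the skull and 2704 to 3602 in the limb with none of 5 markers called, and erythroid marker sums were 12080 to 12490 and 16590 to 22010 with 7 of 9 lower in the skull. Their part in the Lef1 values was not tested.

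**Figure D4:**
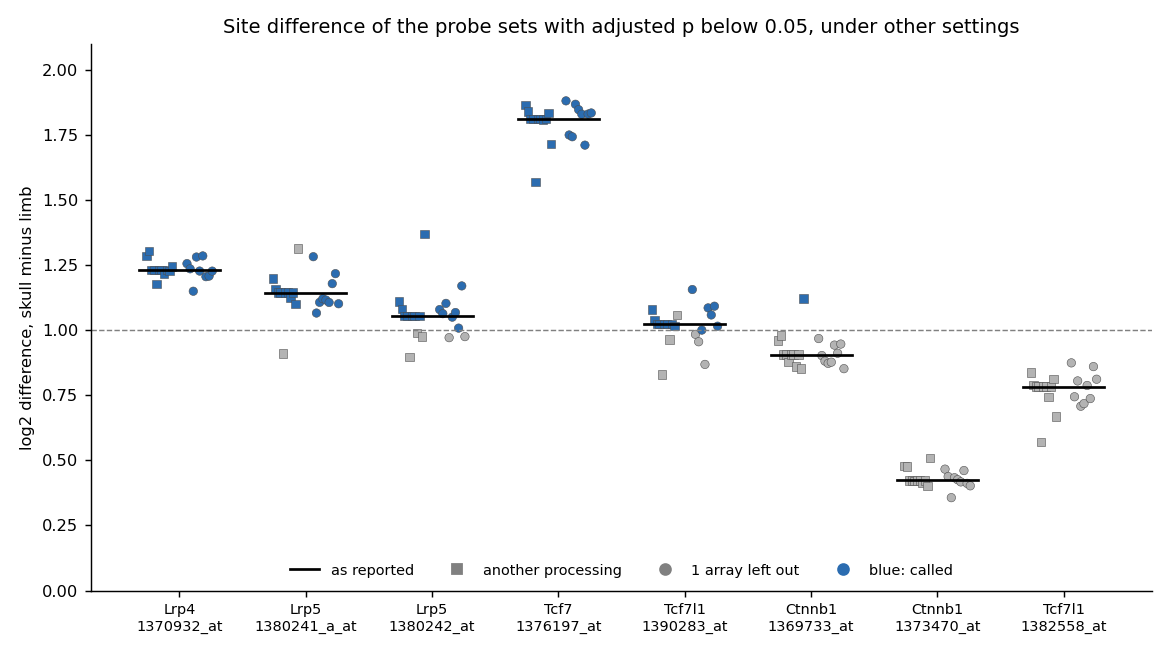
Log2 difference, skull minus limb, of the 8 probe sets with an adjusted p below 0.05, under other processing (squares) and with 1 array left out (circles), with the reported value as a bar and called values in blue. Lrp4 (1.15 to 1.31) and Tcf7 (1.57 to 1.88) stay above the 2-fold line, while Lrp5 1380242_at and Tcf7l1 1390283_at lie on both sides of it.

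Other genes of the pathway were read from 7 lists holding 135 different genes, of which 106 were measured, each by its brightest probe set. By the same rule 8 (7.55%) were higher in the skull and 1 (0.943%) was lower, against 3.47% and 4.31% of all genes. Their median log2 difference was 0.17 and that of all 14217 genes was -0.02. Counts on other thresholds are given for the lists below. On the adjusted p alone 2977 of all 31042 probe sets (9.59%) were higher and 3701 lower. At an unadjusted p under 0.05 in limma 14.6% were higher and 17.5% lower. These shares are over probe sets and not genes. Some of these genes, Twist1, Tnfrsf11b and Cdh15 among them, had been listed by the study from these same samples and are not independent evidence of direction.

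Of 19 receptors and membrane co-factors 2 were higher, both proteoglycans that carry Wnt and other ligands at the cell surface, and none was lower. Gpc4 had 214.7, 265.1, 317.1 and 207.3 in the skull and 61.4, 73.5, 100.2, 91.8 and 81.8 in the limb (1.62 ± 0.17, adjusted p = 0.000225). The difference of Sdc1 was 1.19 ± 0.16 (adjusted p = 0.000872), and its second probe set was also called. On the adjusted p alone 7 of the 19 were higher and none lower. Chosen after their values were seen, Lgr4, an R-spondin receptor, had 0.97 ± 0.16, the Frizzled receptor Fzd8 had 0.94 ± 0.14, and Mesd, the chaperone that folds LRP5 and LRP6, had 0.41 ± 0.06. Their adjusted p values were 0.00241, 0.00166 and 0.00152, and all 3 were under 2-fold.

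The lists of relatives and of ligands of the co-receptors held no call. Of 8 other LRP family genes none was called and 4 were higher on the adjusted p alone, with Lrp10 at 0.35 ± 0.07 (adjusted p = 0.00449) and the large endocytic receptor Lrp1 at 0.92 ± 0.11 (adjusted p = 0.000551). The list of ligands and antagonists of LRP4, LRP5 and LRP6 had 9 measured genes, among them R-spondins and Dickkopf family genes whether or not they bind these receptors. None was called, and at an unadjusted p under 0.05 in limma 2 were higher and none lower. Agrn, the LRP4 ligand agrin, had 0.76 ± 0.09 (adjusted p = 0.000496). Dkk3, of the Dickkopf family, had 0.44 ± 0.14 (adjusted p = 0.0618). Sost, the sclerostin gene, was added after its values were seen. Its brightest probe set had 0.19 ± 0.15 (adjusted p = 0.451) and an S:L ratio of 1.16. Its other probe set was not called, which does not show that it was alike at both sites. The study listed Sost as higher in the skull by a larger ratio, and its table does not say which probe set was used.

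None of the 22 genes of the Dishevelled and destruction complex list was called in either direction, and their median was -0.17. On the adjusted p alone 4 were lower and 1 higher, and at an unadjusted p under 0.05 in limma 6 were lower and 3 higher. Ppp2r5a, a regulatory subunit of the phosphatase PP2A, had -0.45 ± 0.07 (adjusted p = 0.00217), and the priming kinase Csnk1a1 had -0.12 ± 0.09 (adjusted p = 0.406). Btrc, which recognises beta-catenin for ubiquitination and was chosen after its values were seen, had 120.3, 116.1, 94.7 and 130.5 in the skull and 197.2, 156.5, 224.3, 208.2 and 219.7 in the limb. All its skull arrays were below all limb arrays, with a difference of -0.80 ± 0.13 (adjusted p = 0.00193) that stayed under 2-fold.

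The 21 nuclear partners of beta-catenin likewise held no call, with a median of 0.06. Ctbp1, a co-repressor, had -0.46 ± 0.05 (adjusted p = 0.000242) and Smarca4, a chromatin remodelling ATPase, had -0.31 ± 0.08 (adjusted p = 0.0185). On the adjusted p alone 5 were higher and 4 lower, and the unadjusted counts under 0.05 in limma were 7 and 4. Pygo2, a co-activator chosen after its values were seen, had 0.72 ± 0.11 (adjusted p = 0.00147).

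The cadherin and catenin list held calls both ways, 3 of 13 higher and 1 lower. N-cadherin (Cdh2) had 590.5, 676.8, 808.5 and 667.4 in the skull and 202.6, 220.5, 194.7, 228.1 and 238.3 in the limb, without overlap (1.66 ± 0.10, adjusted p = 2.29e-05). Of its 2 other probe sets 1 was called and the dim one, with signals of 1.53 to 17.8, was not. M-cadherin (Cdh15) had 1.11 ± 0.15 (adjusted p = 0.000709). E-cadherin (Cdh1), the epithelial cadherin, was lower in the skull, at 27.3 to 63.5 against 107.3 to 140.9 (-1.52 ± 0.23, adjusted p = 0.00142), while its second probe set stayed at 10.4 or below on every array and was not called. Cdh13, chosen after its values were seen, was higher by its brightest probe set only (1.30 ± 0.28, adjusted p = 0.0101), and its other 2 were not called.

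Of 16 Wnt target genes 3 were higher and none lower. Ccnd1, cyclin D1, had 181.9, 207.5, 223 and 216.5 in the skull and 85.3, 93.1, 61.6, 79 and 81.7 in the limb, without overlap (1.38 ± 0.12, adjusted p = 8.88e-05), and its other 2 probe sets were called too. Twist1, a cranial bone factor, had 1.21 ± 0.10 (adjusted p = 8.35e-05), and Tnfrsf11b, which encodes osteoprotegerin, had 1.55 ± 0.21 (adjusted p = 0.000745). The other 13 targets were not called. Of those, 3 are given that were chosen after their values were seen. Myc had 0.00 ± 0.10, and the feedback inhibitors Nkd1 and Nkd2 had -0.84 ± 0.31 (adjusted p = 0.0922) and 0.22 ± 0.11 (adjusted p = 0.219).

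**Figure D5:**
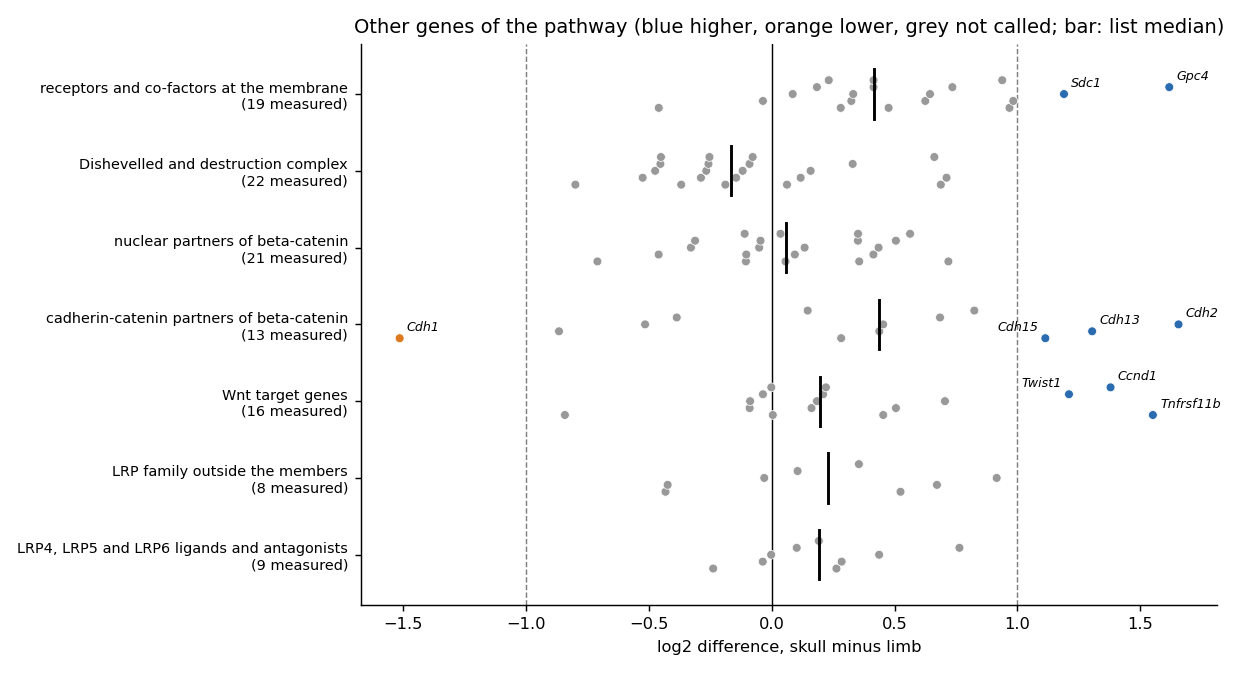
Log2 difference, skull minus limb, of the genes on each of the 7 pathway lists by their brightest probe set, with the list median as a bar. The medians run from -0.17 in the Dishevelled and destruction complex list to 0.44 in the cadherin and catenin list, and the 9 called genes are named.

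For each gene whose brightest probe set was called, the probe sets of other genes with the most similar profile over the 9 arrays were found, as the smallest root mean square difference of centred log2 signals. For Lrp4 these were Pxdc1 (0.0758) and Tent5a (0.0783). For Lrp5 (1380242_at) they were Clec11a (0.122), which encodes an osteogenic secreted lectin, and Lrrc15 (0.124). For Tcf7 they were Rassf4 (0.139) and Cdh2 (0.142, by its second probe set). For Tcf7l1 (1390283_at) they were Sdc1 (0.122) and Dlx3 (0.137), a homeobox gene of skull and tooth. The points share the same 9 arrays and the order by site, so this measure describes likeness of the profile, after its level is removed, and nothing more.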

How the data were processed

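The deposited values were intensities, 1 MAS5 signal per probe set on a linear scale that the authors had scaled to a common trimmed mean on each array. Array medians were 33.01 to 36.59. Samples were grouped by title and source name. Of 31099 rows, 57 were controls and were left out of the tests. Genes were named through the platform annotation, from probe sets with 1 symbol (20826 probe sets). Members and gene lists were chosen with earlier results of these data known.

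Each array was divided by its median and multiplied by the mean of the medians. Signals were floored at the 10th percentile (2.51) and taken to log2, so a difference of a gene near the floor is understated. Skull and limb were compared by limma (version 3.58.1, R 4.3.3; lmFit, eBayes with an intensity trend, no covariate) on all 9 arrays, with Benjamini-Hochberg adjustment over 31042 probe sets, pathway genes included. A call required an adjusted p below 0.05 and a log2 difference of at least 1, two-sided. Standard errors and intervals are from this fit, which was tested on simulated data. S:L ratios are of mean scaled signals without the floor. The authors' methods used an analysis of variance with the same adjustment and a 2-fold threshold, and it was run as an alternative. Absent controls were the Affymetrix trp probe sets. Two-sided exact permutation tests used all 126 splits of the arrays into 4 and 5.

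The genes named were all members, in each pathway list the 3 called genes with the smallest adjusted p or, with no call, the 2 brightest, and the 2 most similar genes per called member. Others are said to be chosen after their values were seen. Promoter sequences were from RefSeq (GRCr8). The number of arrays limits the precision, and p-values measure the spread between pools. The methods take skull and limb RNA from groups of rats without separate groups per site, so a skull and a limb array may share animals. The labels do not tie arrays to these groups, and the main fit treated the arrays as independent. Alternatives were other scaling, floors, an added 16, a filter on dim probe sets, no intensity trend, array weights, the replicate number as a block, each array left out, the adjusted p alone, averaging of probe sets and, chosen after seeing the data, ulna 5 as the only limb array. That last fit assumes that the lone limb array varies like the skull arrays.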

Additional observations from a re-analysis of the deposited data

Results flagged for a closer look

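In 2 of the 43 site groups of member probe sets looked at, 1 array stood far from the others. The measure was Dixon's ratio of gap to range on log2 signals, and chance flags about 5% of groups. Lrp4 (1370932_at) had a signal of 282 on ulna 2, above the 226 to 240 of the other limb arrays, and the gap took 0.729 of the range. Tcf7 (1376197_at) had a signal of 44.7 on ulna 3, below the 62.1 to 65.2 of the other limb arrays, with a gap of 0.871 of the range. Both arrays lay on the limb side of the gap between the sites. Without ulna 2 the difference of Lrp4 was 1.29, and without ulna 3 that of Tcf7 was 1.71, and both stayed called.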

How the results depend on the processing

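The 5 member probe sets higher in the skull stayed 5 with signals as deposited, quantile normalization, the other floors, the filter on dim probe sets (which left 17 of 22 to test), no intensity trend and the methods' analysis of variance. They were 2 with 16 added to the signals, 3 with array weights (Lrp5 1380242_at at 0.99 and Tcf7l1 1390283_at at 0.97 lost), 8 on the adjusted p alone, and 4 to 5 with 1 array left out. The count of lower member probe sets, 0 in limma, was 1 with ulna 5 as the only limb array (Ctnnb1 1375284_at) and 0 in all the other settings run. For all probe sets the 896 higher and 1042 lower became 437 and 595 with 16 added, 2977 and 3701 on the adjusted p alone, 361 and 416 with ulna 5 alone, and 766 to 927 and 946 to 1118 with 1 array left out. For the pathway lists the 8 genes higher and 1 lower became 29 and 10 on the adjusted p alone, 5 and 0 with ulna 5 alone, and 8 to 10 and 1 to 2 with 1 array left out (2 lower without ulna 1). With ulna 5 alone Gpc4, Sdc1, Cdh15, Tnfrsf11b and Cdh1 kept their direction but had limma adjusted p values of 0.0663 to 0.174, and Lrp1 was called at 1.10. Averaging the probe sets of a gene left 8 higher, with Lrp1 at 1.39 added and Cdh13 at 0.84 lost, and 0 lower, with Cdh1 at -0.62. The cause of these changes was not tested. No pair of probe sets of a gene differed after adjustment in any setting run, and with 1 array left out the fewer splits make the smallest exact p larger. No called difference changed sign. Same-numbered skull and limb arrays did not deviate together (correlations of -0.01 to 0.0433), and a fit with the replicate number as a block, without ulna 5, gave 4 member probe sets higher (Lrp5 1380242_at at 0.98 lost) and 733 and 838 probe sets in all. With so few arrays, differences under 2-fold in dim probe sets, such as the third of Apc, could not be resolved.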
